A study of Homo sapiens with 6 samples.

Results

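The genes described here encode core and accessory subunits of the Polycomb repressive complexes, and they were chosen by symbol: EZH1, EZH2, EED, SUZ12, JARID2, RBBP7, BMI1, RING1, RNF2 and CBX2. Each symbol matched 1 row of the deposited table of normalized counts, so the set holds 10 of 23228 gene rows. The rule uses symbols and no measured value. The question asked of them was whether EZH2 and its paralogue EZH1 moved apart when p21 was switched on, and how the other subunits compared.

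The libraries came from SaOS-2, a human osteosarcoma line that the study describes as lacking functional RB, carrying a Tet-inducible p21 vector. The 3 p21 OFF libraries were from untreated cells and the 3 p21 ON libraries from cells given 1 μg/ml doxycycline, for 24 h by the labels. All cells carried the vector, and all were grown in DMEM with serum. p21, encoded by CDKN1A, inhibits cyclin-dependent kinases and arrests the cell cycle. No doxycycline-treated library without the vector was analysed here, so effects of the drug and of p21 cannot be told apart. The labels do not say whether replicates were separate cultures, while the methods of the study speak of biological replicates, and the p-values measure the spread between these libraries.

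Polycomb proteins keep developmental genes silent through chromatin. PRC2 methylates histone H3 at the lysine called H3K27, with EZH1 or EZH2 as the catalytic subunit and EED and SUZ12 as its obligate partners. PRC1 ubiquitinates histone H2A through RING1 or RNF2, paired with a PCGF protein such as BMI1, and its CBX subunits read the PRC2 mark. EZH2 is known as the form of dividing cells and as a target of E2F factors, whereas EZH1 is the form that predominates in many resting tissues.

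CDKN1A lay between 1187 and 1355 normalized counts in p21 OFF and between 40470.4 and 46739 in p21 ON, a 34.5-fold difference of the means. Reads on genes ranged from 12795490 to 21975045 per library. The line's RB1 transcript was detected in every library at 497 to 697 normalized counts and RBL1 (p107) at 212 to 287. RBL2 (p130) fell without overlap, from 1667 to 1798 in p21 OFF to 1326 to 1458 in p21 ON (log2 fold change -0.33, limma adjusted p = 0.00148). Of 9 osteoblast lineage markers, 7 were detected in every library, and 6 had a mean normalized count of at least 10. COL1A2, among the 7 detected, was at only 1.56 to 4.87, while BGLAP was at 0 throughout and SPP1 at 0 to 2.96. The summed levels of the 9 were 53256 to 56153 in p21 OFF and 54320.0 to 58566 in p21 ON, mostly ALPL at 35363 to 38901. Summed epithelial markers were at 328 to 398 and 317 to 357 in the same order, with KRT14 at 0, leukocyte markers at 795 to 871 and 816 to 937, nearly all CD68, with CD3E at 0 to 1.16, and endothelial markers at 62.8 to 69.1 and 73.1 to 105. Among the markers VWF was called higher (log2 fold change 0.50, limma adjusted p = 0.0333) and IBSP lower (-0.38, 0.0264), and their part in the results was not tested. p21 OFF replicate 1 stood apart from the other libraries of its group, with a chi-square per gene of 8.09 and 8.83 against them, where the other replicate pairs gave 2.61 to 3.82 and sampling alone gives about 1. In that library the 1264 shortest transcripts, up to 1313 bases, had a median log2 deviation of 0.18 from the mean of the other p21 OFF libraries. The 1261 longest, from 7813 bases, had one of -0.21. Over the same classes the median log2 fold change between the conditions was -0.17 and 0.16. Results without that library, or with the trend on transcript length removed, are therefore given below. They appear where either setting ended a call or moved the value by more than 1.5 times. This covers the Polycomb genes of the set, their ratios, and the listed genes chosen by size of change. For other named genes, KDM2B, BCOR, MGA, KDM6A, KDM6B and RBBP4 among them, neither setting is given. The part of transcript length in the results was not tested further.

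On p21 induction EZH2 did not pass the test, EZH1 did not pass it either, although its 3 p21 ON values all exceeded its p21 OFF values, and of the remaining 8 genes EED fell and CBX2 rose. The test was limma, on the scale of log2(normalized count + 1), for 13255 genes whose mean reached 10 or more, and a gene was called at a Benjamini-Hochberg adjusted p under 0.05. All 10 Polycomb genes entered this test. Of them 1 was called higher, where 10.5% of all genes tested were, and 1 was called lower, where 12.7% were. The share called in either direction was 20.0%, against 23.2% of all genes tested. The values of p21 ON were all above those of p21 OFF for 2 of the genes, as for 19.1% of all genes tested, and all below for another 2, as for 21.3%. The 4 without overlap compare with 40.4% of all genes. The median log2 fold change of the 10 genes was 0.0045, beside 0.0056 over all genes, and the range ran from -0.31 to 0.23. In bulk RNA a smaller share of cells expressing a gene and less RNA per cell cannot be told apart.

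**Figure D1:**
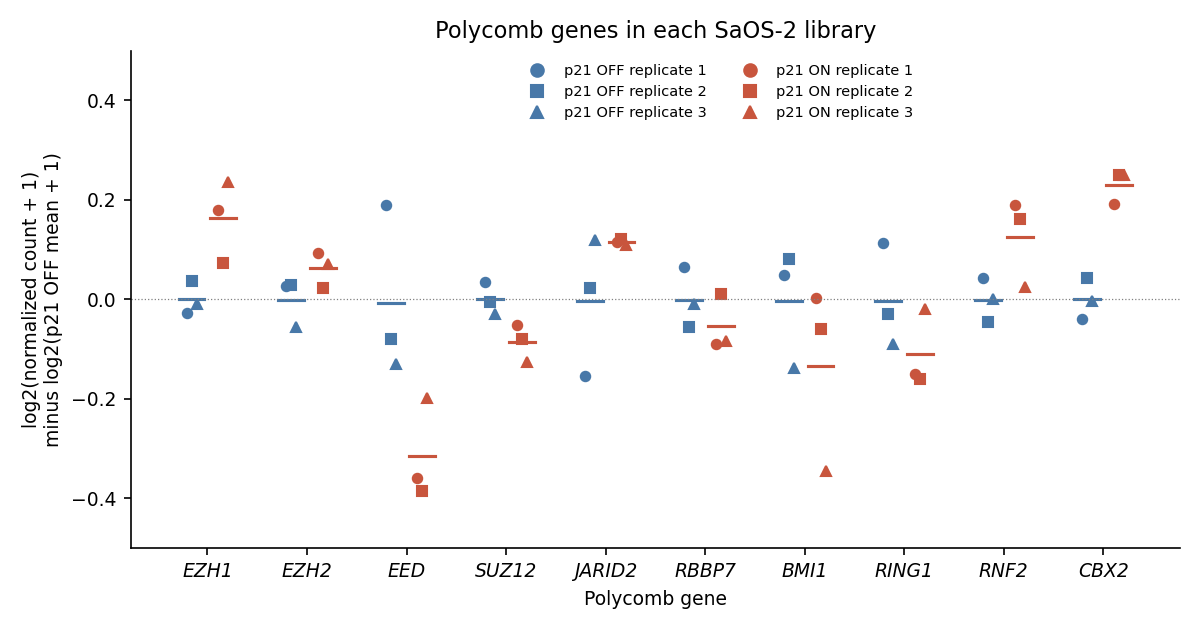
Level of each of the 10 Polycomb genes in the 6 SaOS-2 libraries, as log2(normalized count + 1) minus the log2 of the p21 OFF mean + 1; points are libraries and bars are group means. All points of p21 ON lie above those of p21 OFF for CBX2 and EZH1 and below them for EED and SUZ12, while EZH2 libraries overlap.

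EZH2, on the minus strand of chromosome 7 (chr7:148504349-148581413 in GRCh37, 20 exons in its canonical transcript), encodes the more active H3K27 methyltransferase. It measured 1879, 1881 and 1773 normalized counts in p21 OFF, set against 1967, 1874 and 1937 in p21 ON. The groups overlapped, since the lowest p21 ON library lay below 2 of the p21 OFF libraries. The means were 1844 ± 61.6 and 1926 ± 47.6 (SD, n = 3 each), a ratio of 1.04 with a 95% interval of 0.957 to 1.14. The log2 fold change of 0.06 (SE 0.06) had an adjusted p of 0.474 in limma. EZH2 was called under 0 of 21 alternative settings, whose adjusted p ran from 0.208 to 0.762. The stricter cuts on adjusted p and on fold change, which are among them, reuse the main fit. They could not call a gene that this fit did not. EZH2 is on the low-stringency G1/S list of the study.

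EZH1, on the minus strand of chromosome 17 (chr17:40852293-40897067, 21 exons), encodes the paralogous methyltransferase. It measured 725, 758 and 733 normalized counts in p21 OFF and 837, 777 and 869 in p21 ON. Every p21 ON library was above every p21 OFF library, with p21 ON replicate 2 closest to the p21 OFF range. The means of 739 ± 17.2 and 828 ± 46.7 (SD, n = 3 each) gave a ratio of 1.12 with a 95% interval of 1.01 to 1.24. The log2 fold change was 0.16 (SE 0.07), with an unadjusted p of 0.0305 and an adjusted p of 0.0965 in limma. Among 21 alternatives it was called under 1, scaling by library size alone, with a log2 fold change of 0.21 and an adjusted p of 0.0381. The stricter cuts among them could not have called EZH1 either.

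The contrast between the paralogues was taken within each library, where scaling cancels. The EZH2/EZH1 ratio of normalized counts was 2.59, 2.48 and 2.42 in p21 OFF and 2.35, 2.41 and 2.23 in p21 ON. All p21 ON ratios lay below all p21 OFF ratios, although 2.41 and 2.42 nearly met. On the log2 scale the mean went from 1.32 ± 0.05 to 1.22 ± 0.06 (SD, n = 3 each), a difference of -0.10 (SE 0.04). An exact two-sided permutation test gave p = 0.1, the smallest that 3 against 3 libraries allow, so this design could not reach 0.05; adjusted over 3 paralogue pairs it was 0.15. The difference ranged from -0.13 to -0.07 when single libraries were left out, and it was -0.037 once the trend on transcript length was removed. EZH1 has the longer canonical transcript, 4633 bases against 2654 for EZH2. Per kilobase of transcript the EZH2 level was 4.36 ± 0.154 times that of EZH1 in p21 OFF and 4.07 ± 0.163 times in p21 ON (SD, n = 3 each).

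The other subunits with paralogues were compared in the same way, after their values had been seen. RING1/RNF2 had log2 ratios of 1.57, 1.51 and 1.41 in p21 OFF and 1.16, 1.18 and 1.45 in p21 ON. The groups overlapped because p21 ON replicate 3 lay within the p21 OFF range, and the difference was -0.23 (SE 0.11, exact permutation p = 0.2, adjusted 0.2), or -0.14 with the length trend removed. RBBP7 was set against RBBP4, the other histone-binding WD40 subunit of PRC2, with log2 ratios of 0.80, 0.78 and 0.82 in p21 OFF and 0.62, 0.61 and 0.67 in p21 ON. Here the libraries did not overlap, and the difference was -0.17 (SE 0.02, exact permutation p = 0.1, adjusted 0.15). With the length trend removed it was -0.0021, RBBP4 having the longer transcript, 7883 bases against 2281.

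**Figure D2:**
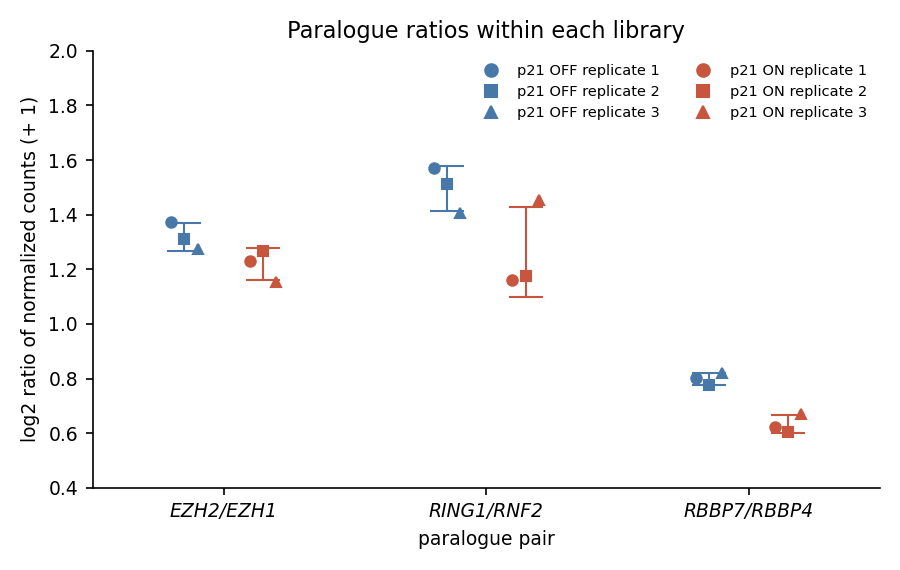
Log2 ratio of normalized counts (+ 1) for 3 paralogue pairs within each library; points are libraries and error bars are the mean ± SD of 3 libraries. The p21 ON ratios lie below the p21 OFF ratios for EZH2/EZH1 (1.22 against 1.32 on average) and RBBP7/RBBP4 (0.63 against 0.80), and overlap for RING1/RNF2.

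E2F and CHR elements are known promoter elements of G1/S and G2/M genes, so the starts of the Polycomb genes were searched for them. RefSeq promoter windows of 300 bases (250 before and 50 after a start, build GRCh38.p14) were found for 9 of the 10 genes, 13 windows in all, and placed on GRCh37 by exact match where printed. The motifs were E2F (TTTGGCGC, TTTCCCGC, TTTCGCGC or TTTGCCGC), CHR (TTTGAA or TTCGAA) and CCAAT, on both strands, and no 2 matches in these genes overlapped. Of 2 EZH2 windows 1 held none of these letters and the other an E2F match just after the start at +2 to +9 and 4 CCAAT matches upstream, whereas EZH1 held 1 E2F match at -115 to -108 on the opposite strand and no CCAAT. The EZH2 and EZH1 sequences are shown because these genes carry the contrast, with capitals marking CCAAT or its complement ATTGG in the first, the E2F match in the second, which covers chr7:148581364-148581393, and the E2F match in the third. The upstream parts span chr7:148581384-148581633 and chr17:40897059-40897308, both on the minus strand.
EZH2: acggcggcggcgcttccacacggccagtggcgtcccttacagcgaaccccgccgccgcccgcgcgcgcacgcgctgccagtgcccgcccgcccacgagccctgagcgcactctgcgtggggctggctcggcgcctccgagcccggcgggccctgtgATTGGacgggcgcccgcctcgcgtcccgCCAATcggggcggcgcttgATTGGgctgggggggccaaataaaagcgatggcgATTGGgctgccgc
EZH2 E2F site: gggctgccgcgTTTGGCGCtcggtccggtc
EZH1: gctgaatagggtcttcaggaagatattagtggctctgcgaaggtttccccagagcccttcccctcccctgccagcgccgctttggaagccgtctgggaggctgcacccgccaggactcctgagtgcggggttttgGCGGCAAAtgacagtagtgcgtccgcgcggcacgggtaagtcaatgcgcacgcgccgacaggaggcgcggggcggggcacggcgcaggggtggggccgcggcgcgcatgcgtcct

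Of all 35116 RefSeq windows, 3.31% held the E2F letters, 16.4% the CHR letters and 34.6% CCAAT. In the 13 windows of the Polycomb genes the numbers were 3, 1 and 6. SUZ12 held all 3 kinds, an E2F match at -189 to -182, a CHR match at -173 to -168 and a CCAAT at -31 to -27. JARID2 had 1 window with CCAAT of 2, and both RBBP7 windows held 1. A match is a run of letters and not a measured binding site.

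EED and SUZ12 complete the PRC2 core. EED, whose WD40 domain binds trimethylated H3K27, lies on the plus strand of chromosome 11 (chr11:85912254-85989855, 12 exons). Its normalized counts were 462, 383 and 369.6 in p21 OFF and 315, 309 and 353 in p21 ON. All p21 ON libraries were below all p21 OFF libraries, and p21 OFF replicate 1 was the highest of the 6. The means fell from 405 ± 50.1 to 326 ± 23.3 (SD, n = 3 each), a ratio of 0.805 with a 95% interval of 0.703 to 0.929. The log2 fold change was -0.31 (SE 0.10, limma adjusted p = 0.0268). The call was lost without p21 OFF replicate 1 (-0.21, adjusted p = 0.0909), without p21 ON replicate 1 (-0.29, 0.108) and without p21 ON replicate 2 (-0.27, 0.0934), and under scaling by library size alone (-0.26, 0.0546). It held under 15 of 21 alternatives, among them the removal of the length trend (-0.25, adjusted p = 0.0388). Its promoter is shown as that of the one subunit called lower, chr11:85955545-85955794 on the plus strand, with the single CCAAT match, read on the opposite strand, in capitals. The window held no E2F or CHR letters. EED shares 221 exonic bases with a lncRNA on the other strand, and the strand setting of the counting is not given in the sources used here.
EED: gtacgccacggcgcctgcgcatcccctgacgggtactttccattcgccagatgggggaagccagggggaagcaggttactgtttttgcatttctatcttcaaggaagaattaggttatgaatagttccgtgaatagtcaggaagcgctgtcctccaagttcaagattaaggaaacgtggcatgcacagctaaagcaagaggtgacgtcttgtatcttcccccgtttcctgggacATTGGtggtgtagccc

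SUZ12, the scaffold of PRC2, lies on the plus strand of chromosome 17 (chr17:30264026-30328057, 16 exons). It measured 1579.9, 1538 and 1511 normalized counts in p21 OFF and 1488, 1459.7 and 1413 in p21 ON. The p21 ON libraries were again wholly below, but the step was small, with a ratio of 0.942 and a 95% interval of 0.863 to 1.03. The log2 fold change of -0.09 (SE 0.06) had an adjusted p of 0.317 in limma. SUZ12 is on the low-stringency G1/S list, and a partial copy, SUZ12P, has a row of its own at 60.8 to 85.3 normalized counts, so reads that both copies share are uncertain.

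JARID2 and RBBP7 are the PRC2 partners in the set. JARID2, which helps bring PRC2 to chromatin (chr6:15246300-15522273, plus strand, 18 exons), measured 2669, 3015 and 3226 normalized counts in p21 OFF and 3215, 3233 and 3202 in p21 ON. The p21 ON libraries lay close together near the top of a wide p21 OFF range, whose low point was replicate 1. The log2 fold change was 0.12 (SE 0.07, limma adjusted p = 0.208), and it was 0.04 without p21 OFF replicate 1 and 0.05 with the length trend removed. RBBP7, a histone-binding protein also found in other chromatin complexes (chrX:16857406-16888485, minus strand, 12 exons), measured 3396, 3122 and 3224 in p21 OFF and 3051, 3270.3 and 3064 in p21 ON. The groups overlapped, and the log2 fold change was -0.05 (SE 0.06, limma adjusted p = 0.547), or -0.02 without p21 OFF replicate 1 and -0.0045 with the length trend removed. RBBP7 is also on the low-stringency G1/S list, and it shares 179 exonic bases with TXLNG on the other strand.

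In PRC1 the chromodomain subunit CBX2 was the gene that rose. CBX2 (chr17:77751947-77761782, plus strand, 5 exons) reads methylated H3K27 and compacts chromatin. Its normalized counts were 3106, 3285 and 3181 in p21 OFF and 3645, 3794 and 3796 in p21 ON. The groups were separated by more than the spread within either. The means were 3191 ± 89.8 and 3745 ± 86.8 (SD, n = 3 each), a ratio of 1.17 with a 95% interval of 1.08 to 1.28. The log2 fold change was 0.23 (SE 0.06, limma adjusted p = 0.00749), and it ran from 0.19 to 0.28 over the alternatives. The call held in 20 of 21, the exception being the demand for a log2 fold change of at least 1.

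The ubiquitin ligase subunits did not pass the test. RING1 (chr6:33176277-33180499, plus strand, 7 exons) measured 1620.1, 1467 and 1407 normalized counts in p21 OFF and 1350.4, 1340.3 and 1479 in p21 ON, with a log2 fold change of -0.11 (SE 0.07, limma adjusted p = 0.276). Without p21 OFF replicate 1, its highest library, the change was -0.05, and with the length trend removed it was -0.02. RNF2 (chr1:185014658-185071735, plus strand, 7 exons), the ligase subunit also called RING1B, measured 545, 513 and 530.0 in p21 OFF and 604, 592 and 539 in p21 ON, with a log2 fold change of 0.13 (SE 0.08, adjusted p = 0.236). In both genes 1 p21 ON library, replicate 3, crossed into the p21 OFF range. BMI1, the PCGF partner of the ligase (chr10:22610028-22620413, plus strand, 10 exons), was low, at 56.5, 57.8 and 49.5 in p21 OFF and 54.7, 52.4 and 42.8 in p21 ON. Its log2 fold change of -0.13 had an SE of 0.17 and a 95% interval of the ratio of 0.715 to 1.17 (limma adjusted p = 0.606). A change of that size was thus not detectable in these libraries. BMI1 shares 1000 exonic bases on its own strand with the readthrough gene COMMD3-BMI1, whose row was at 0 in every library, so its level is uncertain.

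Levels were compared between genes as normalized counts per kilobase of canonical transcript. In p21 OFF the order ran from RBBP7 at 1424 ± 60.6, RING1 at 860.4 ± 63.2, EZH2 at 695 ± 23.2, CBX2 at 689 ± 19.4, JARID2 at 495 ± 46.9, SUZ12 at 343 ± 7.74, EED at 194 ± 24.0, EZH1 at 159 ± 3.70 and RNF2 at 155 ± 4.68 to BMI1 at 15.4 ± 1.26 (SD, n = 3 each). The neighbours EZH2 and CBX2, and EZH1 and RNF2, overlapped between libraries, and the other neighbours did not. In p21 ON, CBX2 at 809 ± 18.8 stood next to RBBP7, and EED at 156 ± 11.2 next to BMI1, below EZH1 at 179 ± 10.1 and RNF2 at 169.8 ± 10.2. RING1 at 798 ± 44.3 and EZH2 at 726 ± 17.9 followed CBX2, and RBBP7 and BMI1 kept the ends of the order at 1371 ± 54.0 and 14.1 ± 1.79. In p21 ON the overlapping neighbours were CBX2 and RING1, EZH1 and RNF2, and RNF2 and EED. A count of reads on a gene model with several starts makes the length, and so this order, approximate. The place of BMI1 is further uncertain, since it shares exonic bases on its own strand with COMMD3-BMI1.

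**Figure D3:**
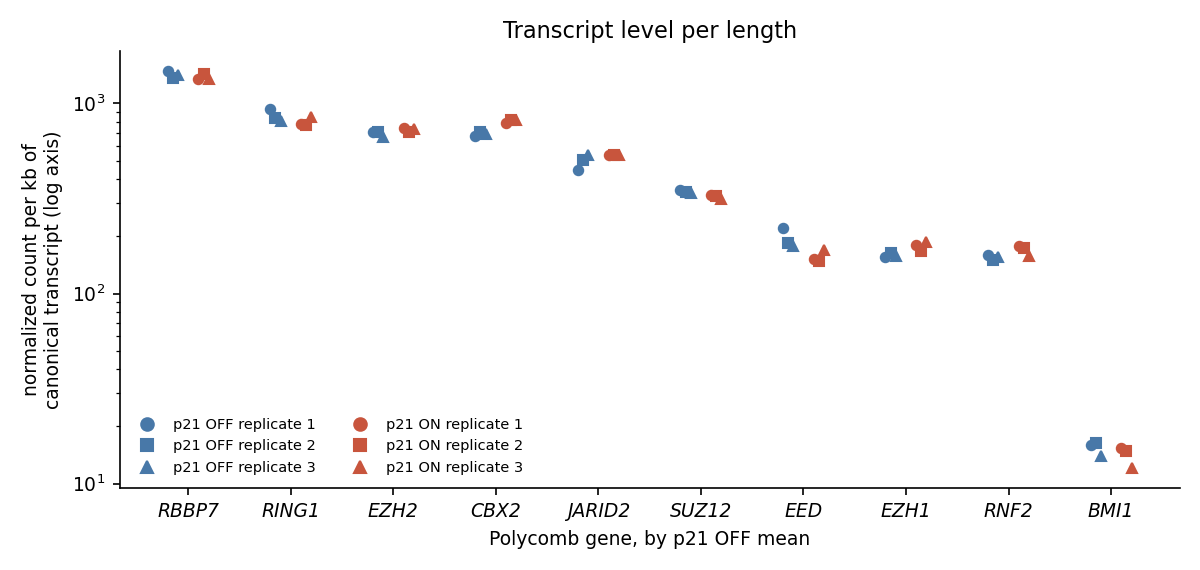
Level of each Polycomb gene as normalized counts per kilobase of canonical transcript on a log axis, ordered by the p21 OFF mean; points are the 6 libraries. Levels span from BMI1 at 15.4 to RBBP7 at 1424 in p21 OFF, and the shift between conditions is small beside the differences between genes. The level of BMI1 is uncertain because of its overlap with COMMD3-BMI1.

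The genes whose pattern over the 6 libraries came closest to that of EZH2, by the root mean square difference of centred log2 values among 10442 genes with a mean of at least 100, were PAK1 (0.0163), GUF1 (0.0192) and TUT1 (0.0204). Those closest to EZH1 were INF2 (0.0159), WWC3 (0.0209) and MOV10 (0.0239). None of the 6 was called in limma, their log2 fold changes being 0.05 to 0.08 for the first 3 and 0.14 to 0.16 for the others. Fold changes near those of EZH2 and EZH1 follow from this choice, which used the same 6 libraries. With 6 libraries this describes likeness in these samples and no more.

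Beyond the set, 41 other Polycomb genes of the 42 listed were tested, of which 8 were called higher, 5 lower and 28 neither, 31.7% in all, beside 23.2% of all genes tested (10.5% higher and 12.7% lower). Among PRC2 accessory genes, PHF19 and MTF2, Polycomb-like proteins that help PRC2 bind DNA, were lower. PHF19 stood at 1771, 2059.9 and 1812 normalized counts in p21 OFF and 1547, 1398 and 1584 in p21 ON (log2 fold change -0.32, SE 0.07, limma adjusted p = 0.00435), and MTF2 at 1891, 1715 and 1835 against 1524, 1561 and 1426 (-0.27, SE 0.06, 0.00596). Both sets of libraries were apart, and both genes are on the low-stringency G2/M list of the study. LCOR, whose locus also encodes a PRC2 partner, was called higher (0.22, adjusted p = 0.0441) but stood at -0.024 with the length trend removed. It was not called in any fit that left out 1 library other than p21 OFF replicate 1 (adjusted p up to 0.175). The LCOR call was also lost by DESeq2 (adjusted p = 0.0793), with replicate number as a block (0.0847) and with no filter on low values (0.0525). RBBP4, on the low-stringency G1/S list, was not called (0.11, adjusted p = 0.209).

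Among the 23 other PRC1 genes tested 6 were called higher and 1 lower, 30.4% in all. Of all genes tested 10.5% were called higher and 12.7% lower, 23.2% in all. The corepressor BCORL1, of the variant complexes, had the largest positive change (0.38, SE 0.08, limma adjusted p = 0.00177), followed by CBX7, a chromodomain reader (0.32, SE 0.10, 0.0314), and PHC3, a polyhomeotic subunit (0.32, SE 0.09, 0.0195). PCGF1, the PCGF subunit of the BCOR complexes, fell from 385 ± 46.5 to 299.5 ± 11.6 (SD, n = 3 each; -0.35, SE 0.09, adjusted p = 0.0116). KDM2B, BCOR and MGA, named after their values were seen, were the remaining PRC1 genes called higher. Their changes were 0.25 (SE 0.07, adjusted p = 0.0233), 0.28 (SE 0.07, 0.00599) and 0.27 (SE 0.08, 0.0271). In each of them p21 OFF replicate 1 was the lowest library, and MGA has a long transcript, 12193 bases. Their values without that library or with the length trend removed are not given here. With the length trend removed PHC3 (0.12, adjusted p = 0.131) and PCGF1 (-0.18, 0.106) were not called. Without p21 OFF replicate 1 CBX7 was not called (0.26, adjusted p = 0.0664), nor without p21 OFF replicate 3 (0.31, 0.0599). Nor was CBX7 called without replicate 1 (0.35, 0.0721) or 3 (0.24, 0.161) of p21 ON, or by DESeq2 (0.32, 0.0528). PHC3 stood at 0.17 without p21 OFF replicate 1 (adjusted p = 0.0295), and it was not called without p21 ON replicate 1 (0.29, adjusted p = 0.0998) or replicate 3 (0.31, 0.0925).

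Of 11 genes of PR-DUB, other H2A deubiquitination and H3K27 demethylation, 1 was called higher, 2 lower and 8 neither. The share called was 27.3%, beside 23.2% of all genes tested. BAP1, the catalytic subunit of PR-DUB, fell from 1746 ± 11.4 to 1498 ± 47.6 (SD, n = 3 each; log2 fold change -0.22, SE 0.06, limma adjusted p = 0.0129), and USP16, which also removes ubiquitin from H2A, had -0.22 (SE 0.07, 0.0352). FOXK1, a DNA-binding partner of PR-DUB, was higher (0.33, SE 0.09, adjusted p = 0.0097). The H3K27 demethylase genes KDM6A (0.13, adjusted p = 0.157) and KDM6B (0.21, 0.104) did not pass. KDM6A is on the low-stringency G2/M list of the study, and its p21 ON libraries were all above its p21 OFF libraries. BAP1 was not called without p21 ON replicate 1 (-0.20, adjusted p = 0.0852), and FOXK1 was not called without p21 ON replicate 3 (0.32, 0.0551) or with the length trend removed (0.16, 0.0743), and stood at 0.22 without p21 OFF replicate 1 (adjusted p = 0.017). For USP16 the call was lost without p21 OFF replicate 1 or 2 or without any one p21 ON replicate, with adjusted p of 0.0581 to 0.141. It was also lost by DESeq2 (0.0514), with replicate number as a block (0.063), with the GC trend removed (0.0695) and under library size alone (0.089). Over all other Polycomb genes the number called higher fell from 8 to 5 without p21 OFF replicate 1, to 3 without p21 ON replicate 1 and to 2 without p21 ON replicate 3, and the number called lower from 5 to 3 without p21 ON replicate 1. Calls over all genes tested also fell without p21 ON replicate 1, from 1393 to 695 higher and from 1681 to 887 lower. Across the fits that left out 1 library they ranged from 695 to 1486 higher and from 887 to 1660 lower.

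Of 24 other histone lysine methyltransferase genes 3 were called higher, 2 lower and 19 neither, so that 20.8% were called, beside 23.2% of all genes tested. SUV39H1, which methylates H3K9 in heterochromatin, had a change larger in size than that of any Polycomb gene tested. It fell from 953, 1058 and 987 normalized counts in p21 OFF to 503, 535 and 531 in p21 ON, a log2 fold change of -0.93 (SE 0.07, limma adjusted p = 1.49e-08). The H3K4 methyltransferases KMT2C (0.54, SE 0.11, adjusted p = 0.00187) and KMT2A (0.51, SE 0.12, 0.0045), in the table under their older names MLL3 and MLL, were higher, and so was ASH1L (0.24, SE 0.08, 0.0324). In KMT2A and KMT2C p21 OFF replicate 1 was the lowest library, at 3863 and 2037 normalized counts. Without it the changes were 0.32 and 0.37, and with the length trend removed they were 0.26 and 0.29, all still called. KMT5A, an H4K20 methyltransferase of mitosis, had -0.20 (SE 0.07, 0.041), a call lost on leaving out any one library but p21 ON replicate 2 (adjusted p up to 0.154). ASH1L was not called without p21 OFF replicate 1 (0.14, adjusted p = 0.0646), without replicate 1 (0.20, 0.157) or 3 (0.22, 0.132) of p21 ON, or with the length trend removed (0.05, 0.517). KMT2A was not called by DESeq2 (0.49, adjusted p = 0.0654). KMT2A is on the low-stringency G1/S list of the study, and KMT5A is on its low-stringency G2/M list. The number of these methyltransferase genes called higher was 6 without p21 OFF replicate 3. Over all genes tested the number called higher ranged from 695 to 1486 across the fits that left out 1 library.

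**Figure D4:**
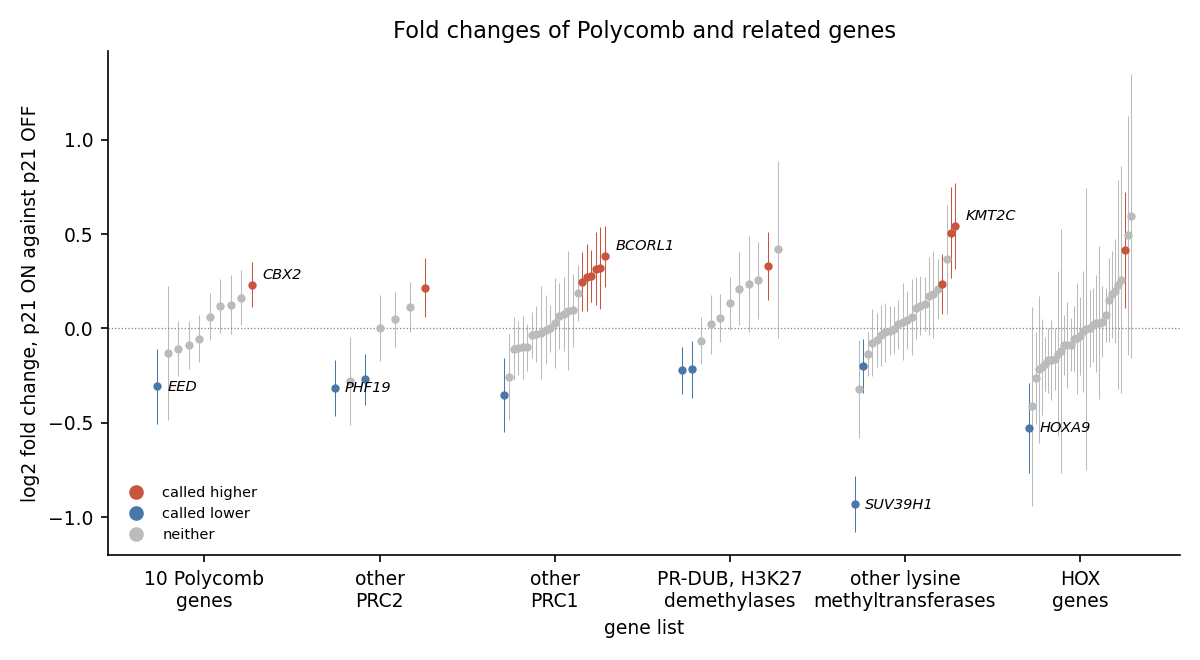
Log2 fold change of p21 ON against p21 OFF for the 10 Polycomb genes and the tested genes of 5 related lists; points are genes in order of their value, bars are 95% intervals from limma, and colour marks genes called higher (red), lower (blue) or neither (grey). The 10 Polycomb genes lie between -0.31 (EED) and 0.23 (CBX2), and SUV39H1 stands apart at -0.93.

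HOX genes and the INK4 locus are classical targets of Polycomb silencing. Of 39 HOX genes 33 were tested, and 1 was higher, 1 lower and 31 neither, so that 6.06% were called, beside 23.2% of all genes tested. The p21 ON values were all above those of p21 OFF for 3 and all below for 7, beside 19.1% and 21.3% of all genes tested. Some HOX genes were near the lowest level tested, where errors were wide. HOXB9, for example, did not pass at 0.60 (SE 0.36, limma adjusted p = 0.238). HOXA9 fell from 345, 337 and 282 normalized counts to 248, 185 and 237 (log2 fold change -0.53, SE 0.11, limma adjusted p = 0.00324), and it is on the low-stringency G2/M list. HOXA13 stood at 89.2, 63.3 and 84.3 in p21 OFF and 109, 104 and 101 in p21 ON (0.42, SE 0.15, adjusted p = 0.0465). Its libraries did not overlap, but the call was lost without p21 OFF replicate 2 or without any one p21 ON replicate, with adjusted p up to 0.218, and with the length trend removed (0.37, adjusted p = 0.0688). At the INK4 locus CDKN2A, which encodes p16 and ARF, fell from 7216, 6972 and 6381 to 5438, 5423 and 6315 (-0.26, SE 0.07, adjusted p = 0.0114), and CDKN2B had -0.15 (adjusted p = 0.0827). The CDKN2A call was lost without p21 ON replicate 1 (-0.23, adjusted p = 0.0837) or replicate 2 (-0.22, 0.0602), or with the length trend removed (-0.10, 0.201). CDKN1C was too low to test. Chromatin marks and Polycomb protein were not measured in these libraries.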

How the data were processed

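RNA was sequenced from 3 p21 OFF and 3 p21 ON libraries of SaOS-2 cells. Stranded mRNA libraries were run by the authors as single-end reads on a single lane, STAR was used for mapping to hg19, HTSeq for counting per gene and DESeq2 for size factors. The deposited values are thus a signal, normalized counts per gene. Tool versions, annotation and the strand setting are not given in the sources used here. Divided by the value of 1 read, 100% of values per library came out whole (tolerance 0.01 reads), so counts were recovered for the alternatives.

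The test was limma 3.58.1 in R 4.3.3 (linear model, moderated with a mean-variance trend, no covariates), on log2(normalized count + 1), for 13255 genes whose mean reached 10 or more, and p-values were adjusted over all of them by Benjamini-Hochberg. A fold change on this scale understates that of low genes. The script was tested on simulated data. Ratios were compared by exact permutation over libraries. The 21 alternatives were edgeR 4.0.16 with TMM or DESeq2 size factors, DESeq2 1.42.0, limma-voom, TMM scaling, scaling by library size alone, no filter, 10 reads in every library, pseudocounts of 0.1 and 10, a replicate block, an adjusted p under 0.01, a minimum log2 fold change of 1, removal of a trend on transcript length or GC content, and each library left out.

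Positions and lengths are from GENCODE 44 on GRCh37, to which 21288 rows were matched, 2151 by an older symbol. A transcript length was found for 95.1% of the genes tested. The genes, lists and tests were chosen with earlier results of these data known. Besides the 10 genes, the text names CDKN1A, the pocket protein genes, the 3 profiles nearest to EZH2 and to EZH1, and in each list up to 3 genes per direction with the largest change among those called without overlap. Some genes set in the plan are not reported here. The low-stringency lists are from the study's supplement.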

Additional observations from a re-analysis of the deposited data

How the results depend on the processing

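The deviations of same-numbered libraries did not run together, with correlations of -0.06, -0.02 and -0.05, where other-numbered libraries gave -0.005 to 0.054. Whether same-numbered libraries were prepared together is not given in the labels, and these values cannot show it. A fit with the replicate block called 1407 genes higher and 1513 lower, against 1393 and 1681 without it, called 1 other lysine methyltransferase lower in place of 2, and changed neither call among the 10 Polycomb genes. Library size alone moved the split of all genes to 2034 higher and 1194 lower, raised EZH1 to 0.21 and past the threshold, and gave 2 Polycomb genes higher and 0 lower, 5 lysine methyltransferases higher and 1 lower.

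With a minimum log2 fold change of 1, 48 genes were higher and 152 lower, with 0 in either direction among the 10 Polycomb genes, the other Polycomb genes, the lysine methyltransferases and the HOX genes. An adjusted p under 0.01 left 616 and 882 genes, with 0 of the 10 lower, 3 other Polycomb genes higher and 2 lower, 1 lysine methyltransferase lower and 0 HOX genes higher. With the length trend removed the EZH2/EZH1 difference was -0.037, LCOR reversed to -0.024, 5 other Polycomb genes were higher and 0 HOX genes. DESeq2 gave 1 lysine methyltransferase lower and 0 HOX genes higher, no filter 0 HOX genes higher, and removal of the GC trend 2 HOX genes lower. The counts over all genes with the length or GC trend removed, by DESeq2 and with no filter are not given here. Whether these shifts were particular to the lists, and their cause, was not tested.

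Leaving out single libraries gave 0 to 1 of the 10 genes lower, 2 to 9 other Polycomb genes higher and 3 to 5 lower, 2 to 6 lysine methyltransferases higher and 1 to 3 lower, and 0 to 1 HOX genes higher. All genes fell to 695 higher and 887 lower without p21 ON replicate 1, and to 739 and 1077 without p21 ON replicate 3. BMI1, at about 50 normalized counts, had the largest SE of the 10 genes, 0.17.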
